A study of Sus scrofa with 36 samples.

Results

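In the livers of 36 castrated male growing pigs, 8 genes of fatty acid synthesis were followed: 6 enzymes, ACACA, ACACB, ACLY, FASN, SCD and ME1, and 2 transcription factors, SREBF1 and MLXIPL. They are 8 of the 10506 gene symbols that had at least 1 usable array probe. The array carried 33 probes named for them, of which 31 passed background (well above it on 6 or more of the 36 arrays), out of 44796 such probes in all. Both lost probes belonged to ACACB and passed background on 2 arrays and 1 array.

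Each liver was hybridised alone on a 1-colour Agilent pig array, and values are quantile-normalized log2 signals of the median spot intensity. The pigs were Large White (LW), Creole (CR) or their cross (F1), with 12 animals of each, and 18 animals were killed at 24 °C (thermoneutral, TN) and 18 after heat (heat stress, HS), giving 6 animals in each of 6 groups. The labels give 30 °C for the HS animals while the growth protocol gives 32 °C. According to the methods, all pigs had free access to feed and came from litters divided over the treatments. By the same account the heated animals were killed last, so that heat and slaughter day cannot be told apart. The study reported lower feed intake in the heated pigs, so heat and reduced intake cannot be told apart either. Litter and pen are not in the labels, so p-values treat the 36 animals as independent. By the methods, each litter and each pen held animals of a single genetic group. Littermates are related, so p-values between genetic groups may be too small. Each pen was also killed at a single temperature, so p-values between HS and TN may be too small as well.

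De novo lipogenesis turns surplus carbohydrate into fat. ACLY cleaves cytosolic citrate into acetyl-CoA, ACACA carboxylates it to malonyl-CoA, FASN builds palmitate from malonyl-CoA with NADPH, and SCD introduces a double bond into the saturated product. ME1, malic enzyme, is a source of that NADPH, whereas the malonyl-CoA made by ACACB restrains fatty acid oxidation at the mitochondrion. SREBF1 encodes SREBP-1c, which carries the insulin signal to these genes, and MLXIPL encodes ChREBP, which carries the glucose signal. In pigs adipose tissue is the main site of this pathway and the liver contributes less.

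Each gene is described by the probe with the highest mean signal, called its representative probe. Because genes had between 1 and 11 usable probes, which can lie in different stretches of a transcript, a 30-base stretch of each 60-base representative probe is shown as the scanner tables give it, with that of a second SREBF1 probe on which results below turn. Capitals mark the hexamer AATAAA of the polyadenylation signal or its reverse complement TTTATT.
Representative ACACA probe: ttcacgttttgaAATAAAcctccacatttg
Representative ACACB probe: caacgtggcccttagtgaacccctaggaat
Representative ACLY probe: catagtttggtttaAATAAActatatcata
Representative FASN probe: ttttacacgaacctggggaaaaccctgtct
Representative SCD probe: tagttatttgtggcctaagaataattttgg
Representative ME1 probe: accaaaattagtAATAAAatggtatgatca
Representative SREBF1 probe: gctgaagatgtacccgtcggtgcctgcctt
Second SREBF1 probe, O13456: aacaatcgttgtatcTTTATTgactttttt
Representative MLXIPL probe: acagagggcacccttggcaaacctttatag
The hexamer AATAAA was present in 6 of the 33 probes of these genes and in 10.3% of the 60305 probes of the array. The 6 count the same 60 bases more than once, in a pair of identical ME1 probes. TTTATT was present in 1 of the 33, the SREBF1 probe O13456, and in 4.32% of all probes. A match describes the letters of a probe and not a site in use.

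On the first principal component of all kept probes, 5 animals lay away from the rest of their genetic group: LW TN replicates 1 and 6, F1 TN replicate 3, and F1 HS replicates 1 and 2. Whether these animals carry the right labels cannot be settled here. Values without these 5 are given where they change a call or what is said of a gene. On this component all LW animals lay below all CR animals. Leaving out the 5 therefore tends to widen differences between genetic groups over all probes. Breed calls gained in that way are no separate support. Of 60305 probes, 74.3% were kept, and no spot was saturated. The hepatocyte markers measured (5 of 6 listed) had a mean log2 signal of 18.29 to 18.38 in the 6 groups. A bulk liver sample cannot separate fewer cells of a type from less RNA per cell.

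The first question was whether heat changed the lipogenic transcripts. The malic enzyme transcript was lower in heated pigs, and it was the only one of the 8 genes to pass the test. Values of the other enzymes pointed lower or near 0, and both transcription factors lay at 0 on their representative probes. A probe was called where its adjusted p (limma, Benjamini-Hochberg over all kept probes) was under 0.05. Over all probes, 385 of 44796 were called between HS and TN (0.859%), 195 higher and 190 lower, and 1 of the 31 lipogenic probes was called.

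ME1 in LW ranged from 7.18 to 8.05 around a median of 7.76 at TN, and from 6.93 to 7.80 around 7.34 at HS. In CR it ranged from 6.59 to 8.28 around 7.33 at TN and from 6.34 to 7.64 around 6.79 at HS. In F1 it ranged from 6.91 to 8.37 around 7.90 at TN and from 6.30 to 7.33 around 7.19 at HS. The HS median was thus the lower in each genetic group, while the ranges overlapped in all of them. Adjusted for breed, ME1 was lower at HS by a log2 difference of -0.53 (SE 0.136, 18 animals against 18, adjusted p = 0.0492 by limma), a 1.44-fold difference, and 16 of 18 HS animals lay below the mean of the TN animals of their group. The difference was -0.39 within LW, -0.49 within CR and -0.70 within F1, none of them called. It was negative on each of the 4 slides with 8 arrays, from -0.39 to -0.76; the remaining slide held 4 arrays and gave no value.

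A second ME1 probe with the same 60 bases gave a log2 difference of -0.53 (adjusted p = 0.0523), and the third, which lies elsewhere, -0.42 (adjusted p = 0.0796). The call lay at the edge of the threshold: it was lost in 30 of the 36 fits that left out 1 array, with adjusted p from 0.0232 without F1 TN replicate 5 to 0.0814 without F1 HS replicate 2, while the log2 difference stayed between -0.58 and -0.47. Without the 5 animals set apart above, it was -0.48 (adjusted p = 0.0910).

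FASN and ACACA were lower at HS in each genetic group without passing, by -0.38 and -0.45 within LW, -0.35 and -0.24 within CR, and -0.17 and -0.30 within F1. Without LW TN replicates 1 and 6 and the F1 animals set apart above, the LW values shrank to -0.06 for FASN and -0.14 for ACACA. The FASN log2 difference was -0.30 (adjusted p = 0.327), with 15 of 18 HS animals below the TN mean of their group, and all 5 FASN probes were lower at HS. That of ACACA was -0.33 (adjusted p = 0.270), with 14 of 18 animals below and all 4 probes lower. The remaining enzymes differed less, by -0.16 for SCD (adjusted p = 0.800), -0.06 for ACACB and -0.05 for ACLY. SREBF1 and MLXIPL differed by 0.00 and 0.01 on their representative probes, and the other SREBF1 probes, O13456 and A_72_P223967, by 0.16 (adjusted p = 0.796) and 0.10 (adjusted p = 0.732). On O13456 the difference was 0.08 within LW, -0.11 within CR and 0.52 within F1 (adjusted p = 0.652). MLXIPL differed by 0.15 within LW, -0.20 within CR and 0.06 within F1, none of them called. Over the 31 probes the log2 difference was negative for 26 and its median was -0.17, against a median of 0.00 over all probes. Probes of 1 gene measure the same transcript and are not independent.

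**Figure D1:**
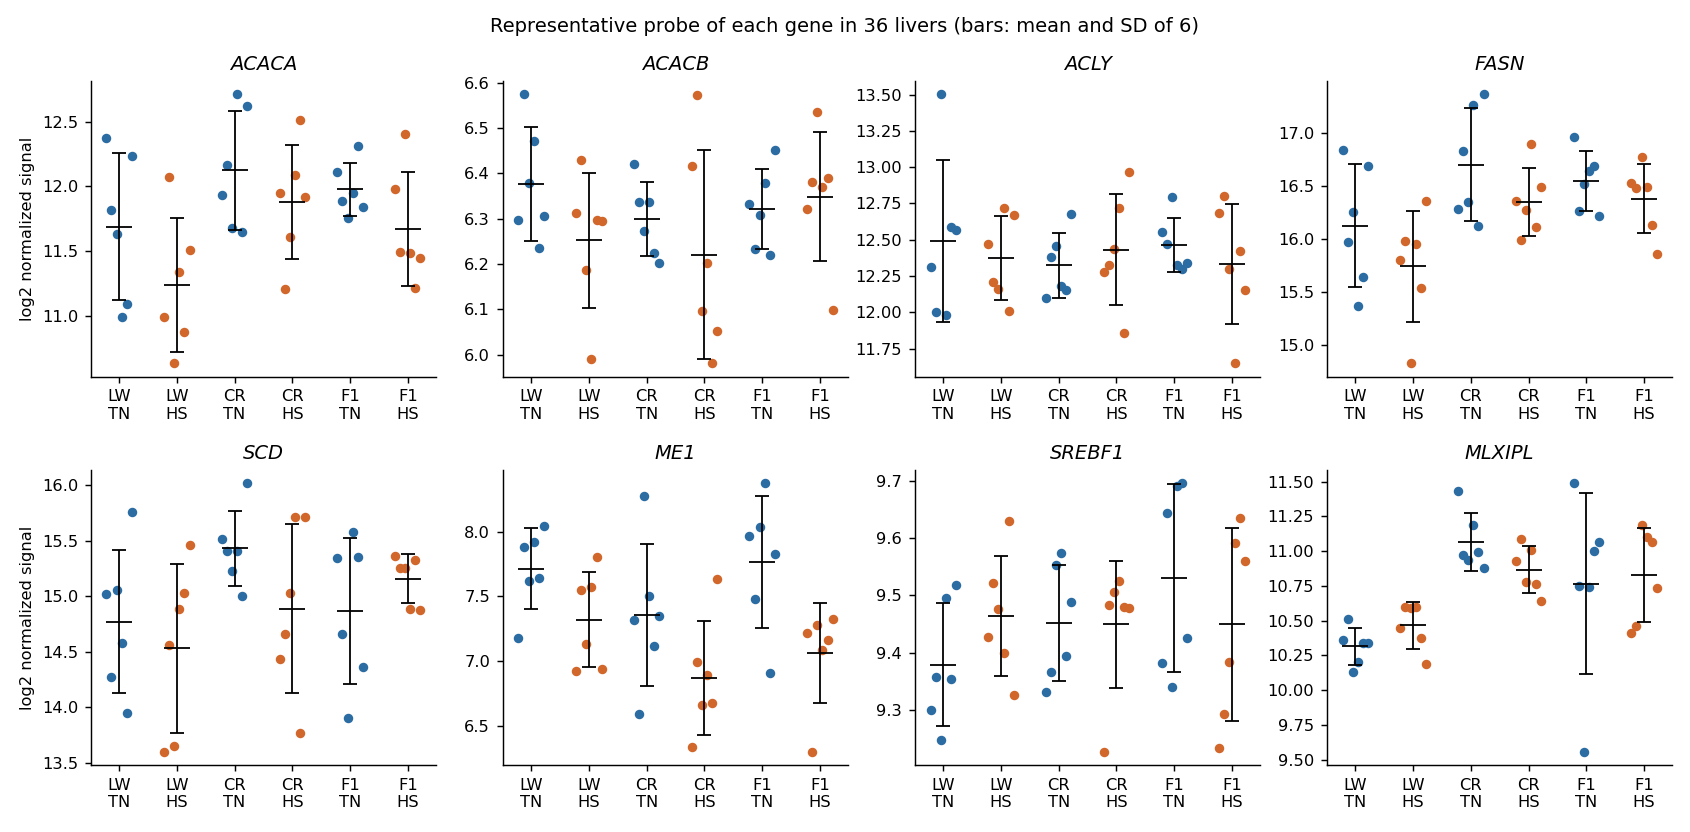
Log2 normalized signal (vertical axes, a separate range for each gene) of the representative probe in each of 36 animals, by genetic group and temperature (blue TN, orange HS); bars give the mean and SD of 6 animals. ME1 means are lower at HS in all 3 genetic groups, and MLXIPL is higher in every CR animal than in any LW animal.

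The direction of SCD, the desaturase, was not stable across the genetic groups. At TN the CR animals ranged from 15.005 to 16.02 (median 15.41) and at HS from 13.77 to 15.72 (median 14.85). The F1 animals ranged from 13.91 to 15.58 at TN (median 15.006) and from 14.87 to 15.36 at HS (median 15.26). The HS minus TN log2 difference was -0.54 in CR, -0.24 in LW and 0.29 in F1, and all 11 SCD probes had these signs. Without the 5 animals it was 0.07 in LW, the opposite sign, and 0.03 in F1, and without F1 TN replicate 3 alone 0.10 in F1, so the sign in LW and most of the difference in F1 rest on these animals. None was called, and the test of the difference between genetic groups gave an adjusted p of 0.995 by limma. On slides 2, 3 and 5 the difference for SCD was -0.72, -0.21 and -0.54, and on slide 4 it was 0.78.

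The breed by temperature test called 0% of all probes, by limma. An unadjusted p under 0.05 was found for 1676 probes (3.74%), a smaller share than that threshold gives with no interaction. None of the 8 genes passed it. Within LW the HS minus TN comparison called 0% of probes, within CR 0% and within F1 0.00893%, which was 4 probes, none of them lipogenic. At an unadjusted p under the threshold, 0, 4 and 3 of the 31 lipogenic probes lay in LW, CR and F1 (0%, 12.9% and 9.68%), against 5.12%, 7.40% and 9.31% of all probes.

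The second question was how the genetic groups differed. By representative probe, CR livers had more ACACA, FASN and MLXIPL signal than LW livers, and F1 livers had more FASN and MLXIPL signal than LW livers. Between CR and LW 26.5% of all probes were called, and 7 of the 31 lipogenic probes, all higher in CR. Between F1 and LW 18.4% of all probes were called, and 3 of the 31, all higher in F1. Between F1 and CR 1.5% were called, and none of the 31, of which 2 had an unadjusted p under the threshold (6.45%, against 12.5% of all probes). By representative probe 3 of 8 genes were called for CR against LW, where 25.9% of all symbols were, so the share of genes called is near the background and the sizes below are given as descriptions of these genes.

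MLXIPL, which had only 1 probe on the array, separated CR from LW without overlap. No other probe could be set beside it. It ranged from 10.13 to 10.60 over the 12 LW animals (median 10.37) and from 10.64 to 11.43 over the 12 CR animals (median 10.95). All 12 CR animals exceeded the highest LW animal. By p-value MLXIPL ranked 2953rd of the 44796 probes in this comparison, in which 26.5% were called. How many other probes separated these genetic groups without overlap was not counted. The log2 difference was 0.58 (SE 0.130, adjusted p = 0.00124 by limma), or 1.49-fold, and it was called in every alternative fit with adjusted p up to 0.00284. F1 animals covered a wider range, from 9.55 to 11.49 (median 10.87). The F1 animals set apart above, F1 TN replicate 3 at 9.55 and F1 HS replicates 1 and 2 at 10.41 and 10.46, lay at or below LW levels and were the lowest F1 animals. F1 exceeded LW by 0.41 (adjusted p = 0.0264), and that call was lost without F1 HS replicate 3 (0.0541), F1 HS replicate 4 (0.0513) or F1 TN replicate 1 (0.0588). Without the 5 animals, a choice that itself widens breed differences, F1 exceeded LW by 0.61 (adjusted p = 1.64e-05).

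FASN ranged from 14.83 to 16.85 in LW (median 15.96), from 15.99 to 17.37 in CR (median 16.36) and from 15.86 to 16.96 in F1 (median 16.50). The ranges overlapped, yet all 12 CR animals lay above the LW mean and 3 above the highest LW animal. CR exceeded LW by 0.59 on the log2 scale (SE 0.168, adjusted p = 0.00834), or 1.51-fold, and F1 exceeded LW by 0.53 (SE 0.168, adjusted p = 0.0260), or 1.44-fold. The F1 call was lost without F1 HS replicate 3 (0.0522), LW HS replicate 3 (0.0544) or LW TN replicate 4 (0.0530). The other 4 FASN probes, of which 2 have the same bases, were also higher in CR and in F1 but none was called, with differences for CR from 0.10 on the dimmest probe to 0.54.

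ACACA ranged from 10.63 to 12.37 in LW (median 11.43), from 11.21 to 12.71 in CR (median 11.94) and from 11.21 to 12.41 in F1 (median 11.87). All 4 ACACA probes were called higher in CR, by 0.38 to 0.54, with adjusted p from 0.00577 to 0.0337. In F1 all 4 were higher than in LW, by 0.28 to 0.68, and 1 was called (A_72_P305844, 0.68, adjusted p = 0.00276), whereas the representative probe was not (0.36, adjusted p = 0.141). ACACA was called between F1 and LW without the 5 animals (0.52, adjusted p = 0.0323) and with the mean of its probes as 1 value (0.41, adjusted p = 0.0273).

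SCD was higher in CR than in LW on all 11 probes, by 0.15 to 0.51, and ME1 was lower on all 3, by -0.40 to -0.25, without a call on any. Both representative probes were called without the 5 animals, SCD at 0.64 (adjusted p = 0.0335) and ME1 at -0.43 (adjusted p = 0.0429). ME1 was also called without CR HS replicate 6 (0.0258), CR TN replicate 3 (0.0224) or LW TN replicate 1 (0.0350), and SCD without CR HS replicate 5 (0.0377) or LW TN replicate 6 (0.0491). Without the 5 animals, 16 of the 31 probes were called between CR and LW and 6 between F1 and LW. Calls over all probes rose as well, from 11856 to 14779 for CR against LW and from 8227 to 14486 for F1 against LW. ACLY and ACACB differed by at most 0.08 on their representative probes in these breed comparisons.

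**Figure D2:**
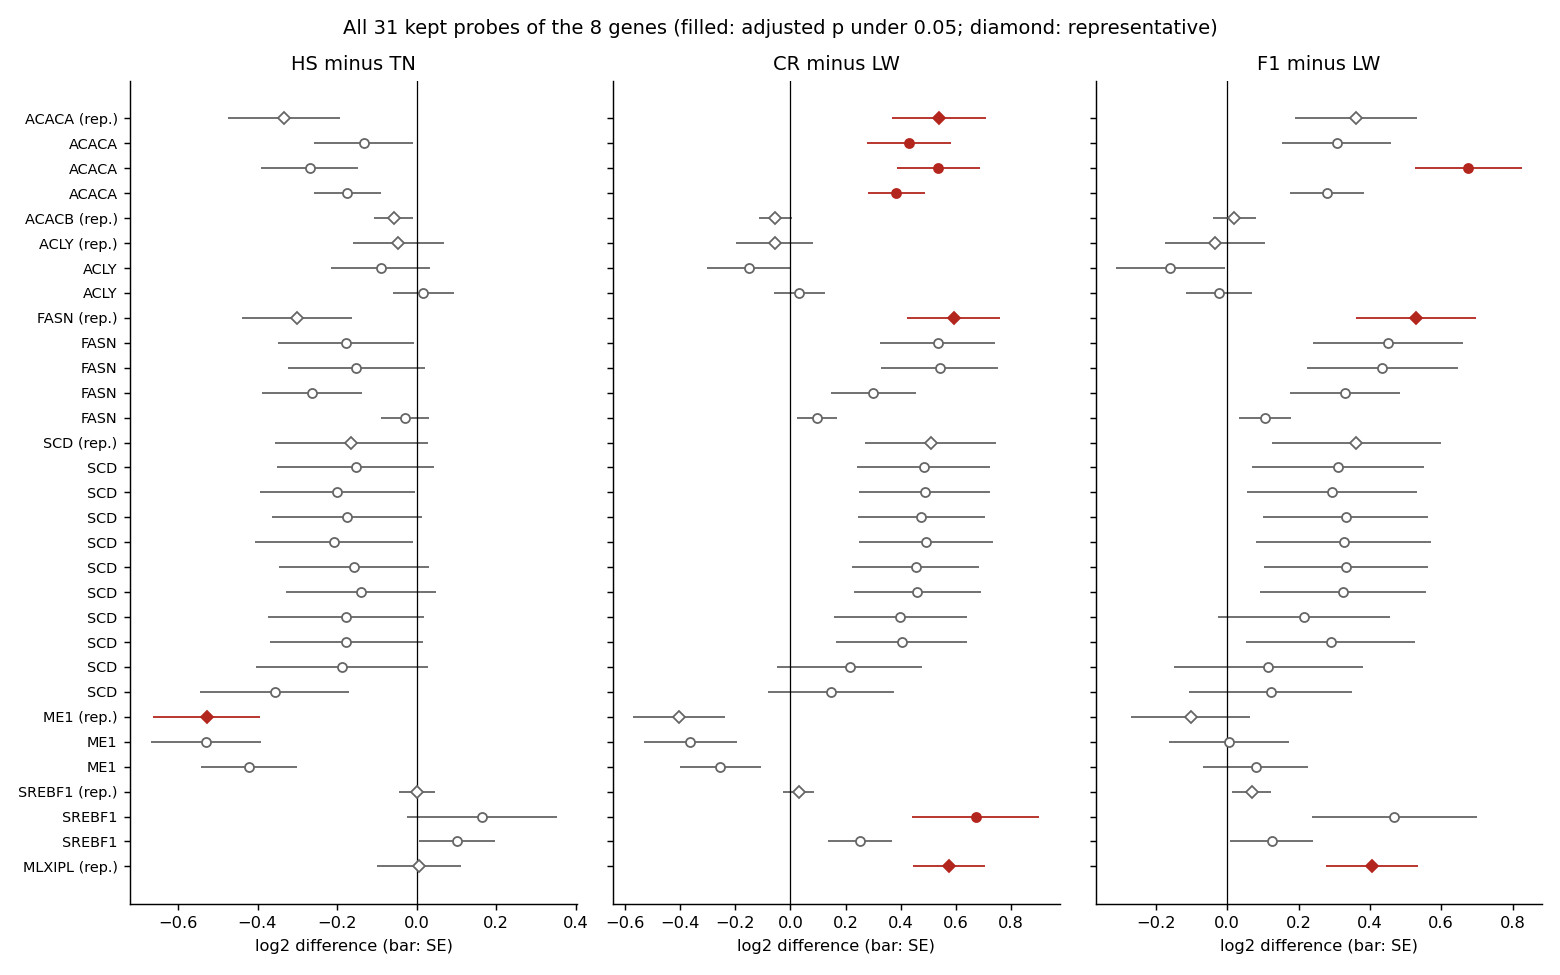
Log2 differences (horizontal axes, bars are standard errors) of all 31 kept probes, grouped by gene, for HS minus TN, CR minus LW and F1 minus LW; filled symbols passed the adjusted threshold and diamonds are representative probes. All 4 ACACA probes are filled for CR minus LW, and 1 ME1 probe is filled for HS minus TN.

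Markers of other liver cells differed between the same genetic groups. Of the Kupffer cell markers 3 of 5 measured were lower in CR than in LW (CD163 by -1.16, VSIG4 by -0.83, C1QA by -0.84 on the log2 scale), as were 3 of 4 endothelial and 3 of 5 lymphocyte markers. Over all symbols 25.9% were called in that comparison. The log2 of the summed Kupffer signal ranged from 15.35 to 15.78 in LW TN and from 15.02 to 15.35 in CR TN. Of the hepatocyte markers 1 of 5, APOA1, was lower in CR, by -0.12, and of the adipocyte markers 1 of 6, PLIN1, by -0.39. KRT7, 1 of 4 bile duct markers, was higher by 0.74, and no stellate or muscle marker was called. In F1 against LW 3 of 5 Kupffer, 2 of 4 endothelial and 2 of 5 lymphocyte markers were lower, where 17.3% of all symbols were called. The part of this in the breed differences of the lipogenic genes was not tested. No marker of any cell type was called between HS and TN, where only 0.952% of all symbols were.

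The SREBF1 probes gave different pictures. The representative probe ranged over only 9.23 to 9.70 in the 36 animals, and CR differed from LW by 0.03 (adjusted p = 0.746). Probe O13456 ranged from 7.68 to 10.20, and CR exceeded LW by 0.67 (SE 0.231, adjusted p = 0.0280), or 1.59-fold. On this probe LW TN animals ranged from 7.96 to 9.52 (median 8.99) and LW HS animals from 8.03 to 9.42 (median 9.06), while CR TN animals ranged from 8.997 to 10.15 (median 9.65) and CR HS animals from 9.02 to 10.18 (median 9.49). All 12 CR animals exceeded the LW mean and 7 exceeded the highest LW animal. The third probe, A_72_P223967, was intermediate, with a CR minus LW difference of 0.25 (adjusted p = 0.104).

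In the array file, O13456 carries a transcript accession other than the pig one that the other SREBF1 probes share, and its match to the pig genome was not checked here. The third probe holds the letters GTCGAC and GCGGCCGC, which are the recognition sequences of the restriction enzymes SalI and NotI. It was the only one of 60305 probes to hold both (0.00166%). Which SREBF1 transcripts each probe detects was not checked.

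**Figure D3:**
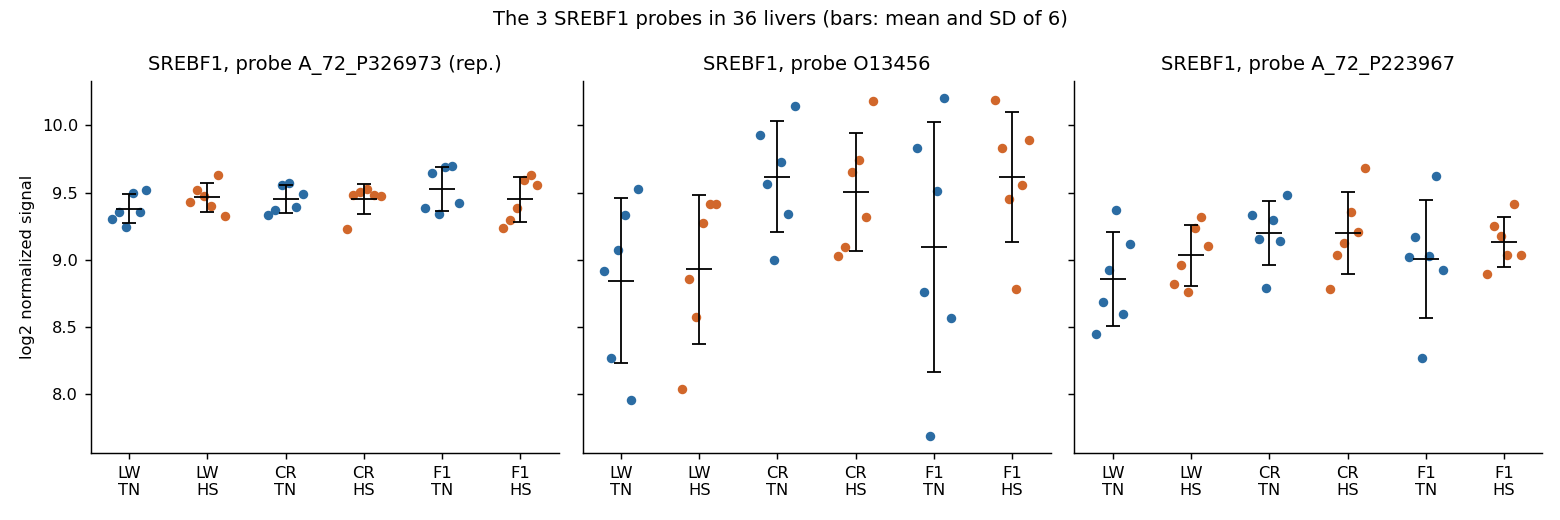
Log2 normalized signal (shared vertical axis) of the 3 SREBF1 probes in each of 36 animals by genetic group and temperature (blue TN, orange HS; bars are mean and SD of 6). The representative probe stays between 9.23 and 9.70, while probe O13456 spans 7.68 to 10.20.

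The third question was whether animals with more of one lipogenic transcript had more of the others. After the mean of each of the 6 groups was subtracted, the 28 pairs of genes were tested over 36 animals by permuting animals within groups (100000 resamples, two-sided, Benjamini-Hochberg over the 28 pairs). Of these pairs 3 passed, of which 2 were positive: FASN with ACACA and FASN with SCD.

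FASN and ACACA had r = 0.781 and rho = 0.828 (permutation p = 1e-05, the smallest the resamples can give, adjusted p = 0.00028 for each). Without the 2 animals farthest from the median ACACA value r was 0.799, after slide means were also removed 0.783, and without the 5 animals 0.737. The carboxylase and the synthase that uses its product thus varied together from animal to animal. Across the other 10505 symbols ACACA had the highest correlation with FASN, SCD ranked 4th and ACLY 220th, against a median r of -0.02.

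FASN and SCD had r = 0.625 and rho = 0.660 (permutation p = 0.00011 and 5e-05, adjusted p = 0.00154 and 0.0007). The value was 0.602 without the 2 farthest animals, 0.636 after slide means and 0.612 without the 5 animals. The negative pair was ACLY with MLXIPL, at r = -0.387 (permutation p = 0.00251, adjusted p = 0.0234) and rho = -0.424 (adjusted p = 0.116). It was -0.365 without the 2 farthest animals, -0.460 after slide means and -0.233 without the 5 animals. The rank version did not pass.

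ACLY gave r = 0.366 with FASN and 0.381 with SCD, neither passing (adjusted p = 0.213 and 0.193). ME1 gave -0.10 with FASN and -0.10 with ACACA, and the representative SREBF1 probe -0.13 with FASN. ME1, the gene called between HS and TN, therefore showed no detectable correlation with the pair of FASN and ACACA in these animals.

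**Figure D4:**
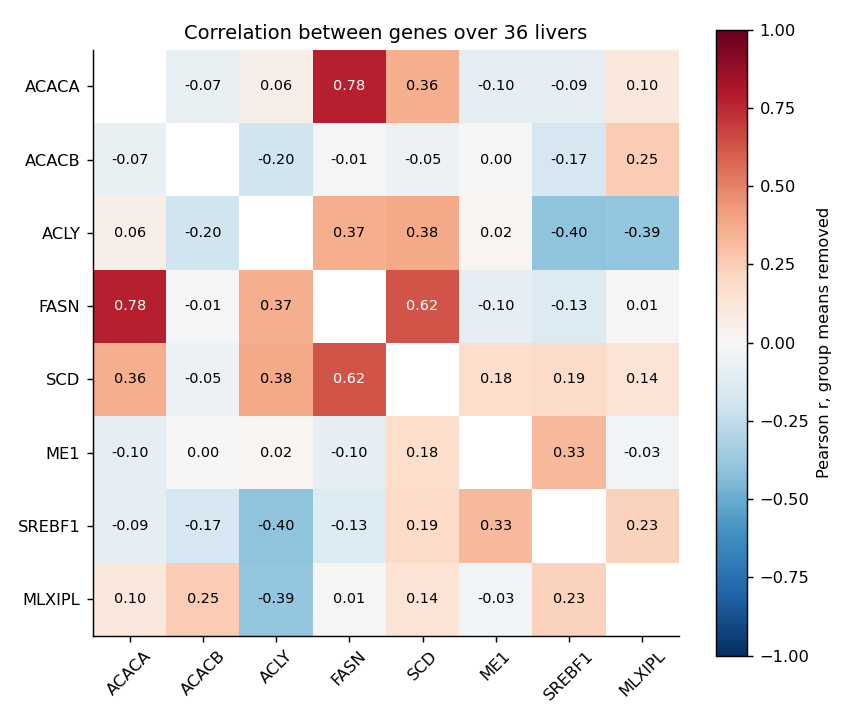
Pearson r between the representative probes of the 8 genes over 36 animals after removal of the 6 group means (colour scale from -1 to 1, value printed in each cell). The highest cells are ACACA with FASN at 0.78 and FASN with SCD at 0.625.

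Outside the 8 genes, the 5 symbols most like FASN over the 36 animals were ACSS2 (r = 0.723), NAGS (0.630), DGAT1 (0.600), FAH (0.559) and SLC7A2 (0.552). ACSS2 makes acetyl-CoA from acetate in the cytosol, DGAT1 performs the last step of triglyceride synthesis, NAGS makes the activator of the urea cycle, FAH is the last enzyme of tyrosine breakdown, and SLC7A2 carries cationic amino acids. After slide means were removed, r lay between 0.502 for SLC7A2 and 0.788 for ACSS2. These are the highest of 10505 values and carry no test.

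The symbols most like the representative SREBF1 probe were HR (0.778), CYP2S1 (0.775), CAMK1G (0.760), L3MBTL2 (0.742) and C1QTNF6 (0.738), none of them a lipogenic enzyme. After slide means were removed these fell to between 0.540 and 0.705.

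Probe O13456 behaved otherwise. Of the 10505 symbols, SCD had the highest correlation with it (r = 0.801), and GPAM, which starts glycerolipid synthesis, ranked 3rd (0.755). With SCD it kept r = 0.799 after slide means were removed and 0.766 without the 5 animals. The third SREBF1 probe had r = 0.591 with SCD, which ranked 34th, and the representative probe 0.190, which ranked 2092nd. Probes O13456 and the representative one correlated with each other at 0.187. This probe was singled out after its values were seen, and no test is given.

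**Figure D5:**
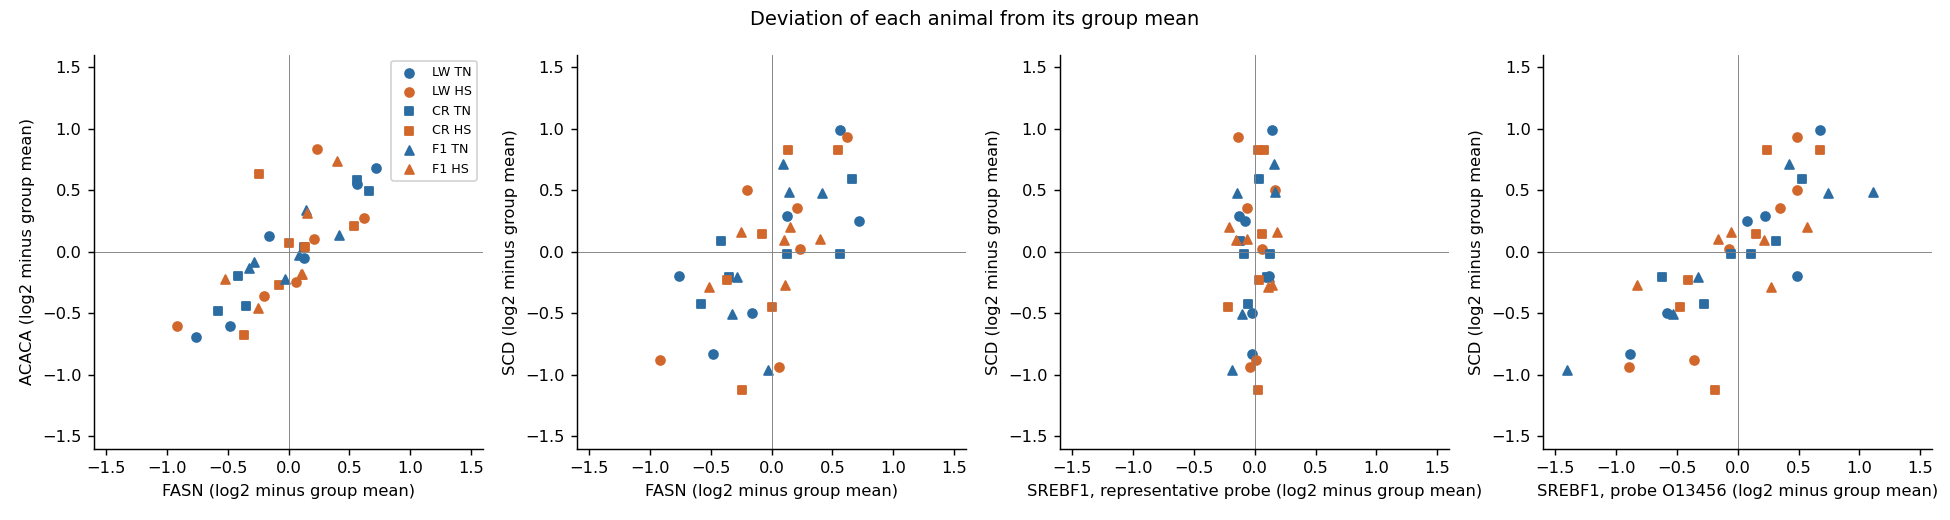
Deviation of each of 36 animals from its group mean (log2, both axes; circles LW, squares CR, triangles F1; blue TN, orange HS) for FASN with ACACA, FASN with SCD, and SCD with 2 SREBF1 probes. Points climb together for FASN with ACACA (r = 0.781) and for SCD with probe O13456 (r = 0.801), but not for SCD with the representative SREBF1 probe (r = 0.190).

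Genes around the pathway were taken from 4 lists, whose genes were measured by representative probe. The lists were chosen with earlier results of these data known. Their shares of called genes are therefore descriptions and not tests of the lists. Of 14 genes of carbon and NADPH supply none was called between HS and TN (median log2 difference -0.04), where 0.952% of all symbols were. Between CR and LW 1 was called (7.14%, against 25.9% of all symbols), and between F1 and LW none. The one called, PDHA1 of the pyruvate dehydrogenase complex, was higher in CR than in LW by 0.29 (adjusted p = 0.0202) and lower in F1 than in CR by -0.44 (adjusted p = 0.00925).

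Of 17 genes that elongate, desaturate or esterify new fatty acids, 2 were called lower at HS (11.8%, against 0.952% of all symbols called). FADS2, the delta-6 desaturase, differed by -0.49 (SE 0.0962, adjusted p = 0.00912) and GPD1, which makes glycerol 3-phosphate, by -0.29 (SE 0.0655, adjusted p = 0.0273). Of their probes 1 of 2 and 4 of 5 were called. ELOVL6, which elongates the palmitate made by FASN, was at -0.65 without a call (SE 0.200, adjusted p = 0.105).

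In the same list 5 genes were called between CR and LW (29.4%, against 25.9% of all symbols). ELOVL6 was higher in CR by 0.71 (adjusted p = 0.0287), ACSL4, which activates long-chain fatty acids, by 0.88 (adjusted p = 0.0109), and LPIN1, a phosphatidate phosphatase, by 0.81 (adjusted p = 0.0388). Of their probes 1 of 2, 5 of 8 and 2 of 8 were called. PLIN2, the lipid droplet coat protein of hepatocytes, was lower in CR by -0.84 (adjusted p = 0.00011) and FADS2 by -0.32 (adjusted p = 0.0387), each with 1 of 2 probes called. F1 against LW also gave 5 calls (29.4%, against 17.3% of all symbols), with ELOVL6 at 0.76, LPIN1 at 1.12, LPIN2 at 0.39, PLIN2 at -0.62 and FADS2 at -0.32. The breed comparisons share the LW animals.

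Of 21 genes that control SREBP-1c, ChREBP and the carboxylases, 1 was called between HS and TN (4.76%, against 0.952% of all symbols). PRKAB1, a regulatory subunit of AMP-activated protein kinase, which inhibits the carboxylases, was higher at HS by 0.32 (SE 0.0645, adjusted p = 0.0128), and 2 of its 3 probes were called. Between CR and LW 7 were called (33.3%, against 25.9% of all symbols), 3 higher and 4 lower. USF1, an E-box factor that acts on the FASN promoter, was higher in CR than in LW by 1.21 (adjusted p = 4.57e-07) and lower in F1 than in CR, with a log2 difference of -1.02 (adjusted p = 0.000147). INSIG2, which holds SREBP in the endoplasmic reticulum, was lower in CR than in LW by -0.77 (adjusted p = 0.000623) and higher in F1 than in CR by 0.63 (adjusted p = 0.0336). For USF1 4 of 5 probes and for INSIG2 both probes were called between CR and LW. The remaining calls were RXRA (0.27) and USF2 (0.24), higher in CR, and PRKAB2 (-0.47), PRKAA1 (-0.24) and PPARG (-0.17), lower. Between F1 and LW 3 were called (14.3%, against 17.3% of all symbols), with SCAP (0.23) and RXRA (0.24) higher and PRKAA1 (-0.27) lower.

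Of 14 genes of the insulin signal none was called between HS and TN (median -0.03), where 0.952% of all symbols were. Between CR and LW 3 were called (21.4%, against 25.9% of all symbols). AKT1 was lower in CR by -0.59 (adjusted p = 7.8e-06), and GSK3B and MTOR were higher, by 0.24 each. Between F1 and LW 2 were called (14.3%, against 17.3% of all symbols), with AKT1 lower by -0.29 and GSK3B higher by 0.21. For the 8 lipogenic genes themselves the median difference was -0.11 between HS and TN, against -0.004 over all symbols, and 0.27 between CR and LW, against -0.01.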

How the data were processed

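Liver RNA of 36 pigs was measured on 1-colour arrays. The authors deposited scanner tables written by Agilent Feature Extraction 10.10.1.1, whose spot intensity values are linear and not normalized between arrays, and a table of log2 values for 42051 probes, quantile normalized per the methods, in which every probe had been centred to a common level, so it holds differences and not levels (median correlation with the values used here 0.962 across arrays).

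Non-control median signals were log2 transformed and quantile normalized, 107 non-uniform spots were set missing, and probes well above background on at least 6 arrays were kept. Spots above background numbered 39644 to 44025 per array. The number of arrays limits the precision. Names came from the files and from RefSeq symbols of Sscrofa11.1, matched through symbol, accession, gene number or synonym; 22328 kept probes were named. Unnamed probes whose descriptions cite only similarity to a lipogenic protein were left out.

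Groups came from the labels and replicate numbers follow accession order. A model of breed plus temperature, and a model of 6 group means for within-breed and interaction tests, were fitted with limma 3.58.1 in R 4.3.3, with Benjamini-Hochberg adjustment over 44796 probes and a threshold of 0.05. Tested on simulated data, the temperature comparison recovered 87% of probes changed by 0.5 log2 units and 100% of those changed by 1. The comparison of CR with LW recovered 79% and 100%. The 200 changed probes were drawn at random from all kept probes and given independent noise. These shares are therefore not the chance of calling such a change in a lipogenic probe. The pen, slaughter day and parents of the study's model were not in the labels. Correlations used Python 3.11.15 and numpy 2.4.6. Named genes are the 8 genes, genes of the 4 lists that were called (at most 5 per list and comparison by smallest p; others called are named for completeness), and the 5 symbols most like FASN and SREBF1. The genes and lists were chosen with earlier results of these data known. Alternatives were other background corrections, the authors' table, other filters, slide as a block, array weights, another variance prior, 1 value per gene, and leaving out animals. Promoter windows were not analysed here.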

Additional observations from a re-analysis of the deposited data

Results flagged for a closer look

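Among 48 sets of 6 animals (8 genes in 6 groups), 2 held an animal far from the other 5, where chance alone gives about 2.4. ME1 in F1 HS replicate 2 was 6.30 against 7.09 for the next animal, a gap of 0.766 of the group's range. SREBF1 (representative probe) in CR HS replicate 1 was 9.23 against 9.48, a gap of 0.839 of the range, in a gene whose range over all animals was under 0.5 log2 units.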

How the results depend on the processing

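Directions of the called differences of the 8 representative probes held in every alternative. Lipogenic probes called between HS and TN (1 as reported) were 0 with the processed signal, the authors' table, no filter on dim probes, a trended spread or without the 5 animals, and 2 with normexp, with probes bright on all arrays, with slide as a block or with array weights. The adjusted p of ME1 was 0.0543 with the processed signal, 0.0565 in the authors' table, 0.0623 without the filter and 0.0516 with the trended spread. Leaving out 1 array gave 0 to 3. Between CR and LW the 7 lipogenic probes became 12 with array weights and 16 without the 5 animals (5 to 11 with 1 array left out, the highest without CR TN replicate 3). Between F1 and LW the 3 became 6 without the 5 animals (1 without F1 HS replicate 3 to 5 without F1 TN replicate 3). The FASN call between F1 and LW was lost in the authors' table (adjusted p = 0.0516) and with the mean of all probes of a gene (0.0994), while ACACA (0.41, adjusted p = 0.0273) was called there with that mean and SREBF1 was called between CR and LW with that mean (0.32, adjusted p = 0.0375).

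Over all probes, 1 value per gene gave 148 calls for HS against TN, 2773 for CR against LW, 1777 for F1 against LW, 199 for F1 against CR and 18 within CR. Without the 5 animals CR against LW gave 14779, F1 against LW 14486 and F1 against CR 1072. Array weights put F1 against CR at 1082. Within CR the authors' table gave 5, probes bright on all arrays 17, no filter 8 and array weights 13, and within F1 slide as a block gave 7. With 1 array left out the counts were 202 to 529 for HS against TN, 10599 to 12690 for CR against LW, 6275 to 9860 for F1 against LW, 480 to 721 for F1 against CR, 0 to 3 within LW, 0 to 113 within CR and 1 to 55 within F1. The count of correlated pairs (3) was 4 after slide means and 3 without the 5 animals. The causes of these changes were not tested. No paired analysis was possible because the labels carry no replicate number, litter or pen. Dim probes, such as those of ACACB, limit what could be seen.

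Several differences that were not called, most of them near 0, changed sign. Between HS and TN, SREBF1 (0.00) was -0.020 with the processed signal, -0.0056 with normexp and -0.00036 in the authors' table, and MLXIPL (0.01) was -0.024, -0.0024 and -0.0204 there, -0.0051 with array weights and -0.0202 without the 5 animals. Between CR and LW, SREBF1 was -0.013 in the authors' table. Between F1 and CR, ACLY was -0.00032 with slide as a block, -0.0013 with array weights, -0.014 with 1 value per gene and -0.10 without the 5 animals, SREBF1 was -0.098 with 1 value per gene, and MLXIPL was 0.047 without the 5 animals. Within LW, SCD was 0.067 without the 5 animals. Within CR, SREBF1 was 0.0034 with the processed signal, 0.019 in the authors' table and 0.021 with slide as a block. Within F1, ACACB was -0.029 with slide as a block and SREBF1 0.19 with 1 value per gene. With 1 array left out, HS minus TN ran from -0.085 to 0.019 for ACLY, -0.012 to 0.017 for SREBF1 and -0.072 to 0.049 for MLXIPL. CR minus LW ran from -0.11 to 0.042 for ACLY. F1 minus LW ran from -0.0076 to 0.042 for ACACB and -0.078 to 0.064 for ACLY, and F1 minus CR from -0.024 to 0.091 for ACLY and -0.12 to 0.00080 for FASN. HS minus TN for ACLY ran from -0.22 to 0.083 within LW, -0.00089 to 0.22 within CR and -0.22 to 0.010 within F1. It ran from -0.026 to 0.043 for SREBF1 within CR, and within F1 from -0.0089 to 0.078 for ACACB and -0.18 to 0.21 for MLXIPL.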
